A study of Mus musculus with 6 samples.

Results

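CTCF and the cohesin complex build the loops of chromatin, and the 10 genes examined here encode CTCF (*Ctcf*), its germ cell paralog (*Ctcfl*), the subunits of cohesin (*Smc1a*, *Smc3*, *Rad21*, *Stag1*, *Stag2*), its loader (*Nipbl*) and 2 cohesin-associated regulators (*Pds5a*, *Pds5b*). They were chosen by gene symbol for these roles. All 10 were found among the 24223 genes of the counts, and 9 of them had enough counts to be tested. RNA-Seq was performed on 6 libraries, 2 independent replicates each of Naive, Th17 and Th1. The Naive cells were CD4+CD62L+/CD44- T cells isolated by a kit from lymph nodes and spleens, which were pooled, of C57BL/6 mice aged 1 to 2 months, with no treatment. The Th17 and Th1 cells were grown from such cells on anti-CD3 and anti-CD28 and collected on day 5. Th17 cultures also received anti-IL-4, anti-IFN-γ, TGF-β, IL-6, IL-1β and IL-23, and Th1 cultures anti-IL-4, IL-12 and IL-2. Th17 and Th1 therefore differ from Naive by activation and culture as well as by polarization, and these cannot be told apart.

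Cohesin is a ring made of the ATPases SMC1A and SMC3 closed by the kleisin RAD21, to which STAG1 or STAG2 binds. NIPBL loads the ring and drives it to extrude a loop of chromatin. CTCF bound to DNA halts the moving ring, so that loop anchors and borders of domains come to lie at CTCF sites. PDS5A and PDS5B act on the ring together with WAPL in release and with the acetyltransferases in its stabilization. The same ring holds sister chromatids together in dividing cells.

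The promoters of *Ctcf*, *Smc1a* and *Smc3* are shown because *Smc1a* and *Smc3* had the largest differences between Th17 and Th1 among the genes tested while that of *Ctcf* was small. The first 3 lines hold the 250 bases before the start site. The last holds a stretch of 21 bases that begins 29 bases after the start site of *Smc1a*. All are on the plus strand of GRCm38.p6, from a set of RefSeq promoters that held 6 of the 10 genes. Capitals mark E2F-type words (TTTCCCGC, TTTCGCGC, TTTGCCGC or TTTGGCGC) and the CHR word (TTTGAA), both of which are known from promoters of cell cycle genes.
Ctcf, chr8:105636288-105636537: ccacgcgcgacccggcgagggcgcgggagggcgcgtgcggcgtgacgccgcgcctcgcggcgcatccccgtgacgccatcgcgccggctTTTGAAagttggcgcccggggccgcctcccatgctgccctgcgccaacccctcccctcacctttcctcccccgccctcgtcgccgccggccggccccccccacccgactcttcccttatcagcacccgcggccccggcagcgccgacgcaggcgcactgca
Smc1a, chrX:152016178-152016427: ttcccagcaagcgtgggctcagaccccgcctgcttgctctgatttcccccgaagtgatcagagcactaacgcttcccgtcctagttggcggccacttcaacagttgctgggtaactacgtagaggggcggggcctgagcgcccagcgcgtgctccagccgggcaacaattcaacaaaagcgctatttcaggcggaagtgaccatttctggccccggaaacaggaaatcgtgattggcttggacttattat
Smc3, chr19:53600146-53600395: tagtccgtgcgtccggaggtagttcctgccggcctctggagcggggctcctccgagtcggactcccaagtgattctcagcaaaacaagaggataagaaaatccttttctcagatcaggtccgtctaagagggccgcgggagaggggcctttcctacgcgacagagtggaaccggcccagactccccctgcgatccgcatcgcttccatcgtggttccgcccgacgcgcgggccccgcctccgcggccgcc
Smc1a, stretch after the start site, chrX:152016457-152016477: ctgcgctaTTTCCCGCgcggg

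The words were searched on both strands from 250 bases before to 50 bases after the start site. *Smc3* held neither word in this window. *Ctcf* held the CHR word, starting 161 bases before the start site, and *Smc1a* held TTTCCCGC, starting 37 bases after it. *Stag1* and *Pds5a* also held an E2F-type word, and *Pds5b* held the CHR word. Among 32851 promoters of the same length, 2.26% held an E2F-type word and 17.9% the CHR word. CCCTC, a short core of the CTCF motif, was present in all 6 promoters and in 66% of the 32851. These matches describe letters and not bound sites.

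Depth ranged from 17742158 to 69080017 counts per library, and replicate 1 was the deeper in each cell type. Expression is given as CPM, the counts of a gene divided by the library total after TMM scaling. Markers of the labelled cells were in place. The summed CPM of 8 CD4 T cell genes was between 3345 and 4957 in every library, that of 5 Th17 genes was 1458 and 1910 in Th17 against 21.7 to 48.1 elsewhere, and that of 5 Th1 genes was 896 and 922 in Th1 against 127 to 162 elsewhere. The 5 naive T cell genes did not set Naive apart, with sums of 2551 and 3923 CPM for Naive and 2340 to 3958 CPM in the other libraries. A list of 7 neutrophil genes stood at 2875 and 2774 CPM for Th17, at 310 and 189 CPM for Naive, mostly from *Mpo*, and at 27.4 and 39.3 CPM for Th1. The 5 macrophage and dendritic cell genes found had 236 and 819 CPM for Th17 and at most 38.2 CPM elsewhere. Erythroid genes summed to 476 and 86.8 CPM for Naive, mostly from *Car1* with the 4 globin genes at 0 counts, and to at most 1.58 CPM elsewhere. B cell genes summed to at most 15.8 CPM and CD8 T and NK cell genes to at most 65.2 CPM in every library.

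None of the 9 genes tested differed between cell types by the thresholds of a DEG in edgeR's quasi-likelihood test, a log2 fold change beyond 1 in either direction with an adjusted p-value under 0.01. Of all 13607 genes tested, 5.43% were called in Th17 vs Naive, 7.45% in Th1 vs Naive and 5.53% in Th1 vs Th17. At an adjusted p-value under 0.05 alone, the test again called 0 of 9 in each comparison, against 15.9%, 16.4% and 16.4% of all genes. At an unadjusted p-value under 0.05 there were 1, 1 and 2 of the 9 genes, against 33.3%, 29.9% and 33.8%. DESeq2 called 0 of 9 at an adjusted p-value under 0.05 in both comparisons with Naive, against 22% and 20.7% of all genes, and 2 of 9, *Smc1a* and *Smc3*, in Th1 compared with Th17, against 23%. Without the filter on low counts, edgeR called the same 2 in Th1 compared with Th17, against 19.2% of all genes, and 0 in the comparisons with Naive. With the replicate number as a block in Th1 compared with Th17, edgeR called 1 of 9 (*Smc1a*, adjusted p = 0.049), against 17.5% of all genes, and DESeq2 the same 2, against 20%. The libraries of the cell types compared did not overlap for 6, 3 and 4 of the 9 genes, against 65.5%, 56% and 66.6% of all genes.

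The intervals limit how large a difference could be. The standard errors of the log2 fold changes of the 9 genes were between 0.25 and 0.32. The 95% confidence interval lay within a 2-fold difference in either direction for 5 of 9 genes in Th17 vs Naive, 6 of 9 in Th1 vs Naive and 5 of 9 in Th1 vs Th17. With 2 libraries per cell type, the intervals of the others reached beyond 2-fold. The median absolute log2 fold change of the 9 genes was 0.29, 0.19 and 0.39 in the 3 comparisons, against 0.59, 0.50 and 0.60 for all genes. Over the 6 libraries, the SD of log2 CPM had a median of 0.32 in the 9 genes and of 0.53 in all genes. Each of the 9 lay below the latter, *Smc1a* only just (0.530 against 0.532). The 9 genes had at least 826 counts in every library, and these comparisons with all genes were not matched for expression.

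**Figure D1:**
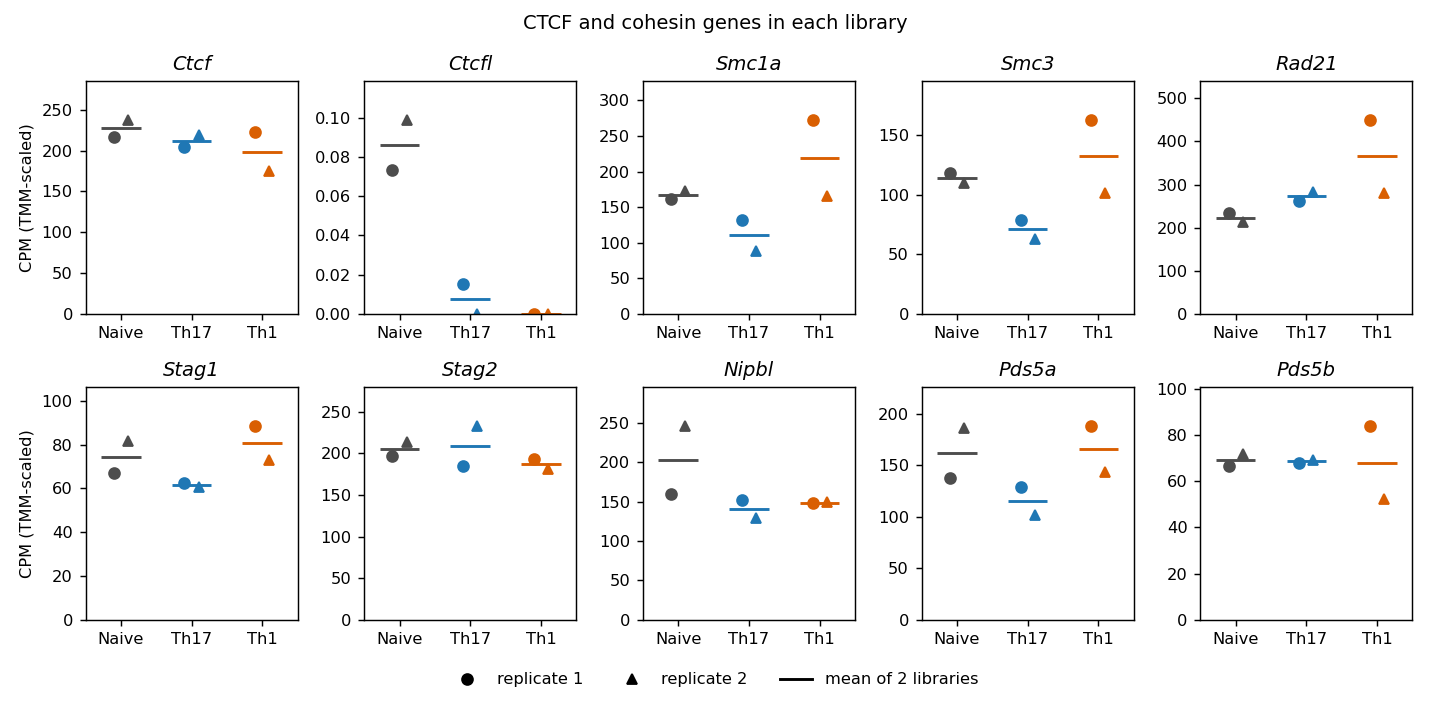
CPM of each of the 10 genes in each library, with circles for replicate 1, triangles for replicate 2 and a line at the mean of the 2 libraries of Naive, Th17 and Th1. The y axis starts at 0 and its scale differs between genes. *Ctcf* and *Stag2* were nearly level, *Smc1a* and *Smc3* were lowest in Th17 and highest in Th1 replicate 1, and *Ctcfl* was close to 0.

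*Ctcf* encodes the zinc finger protein that binds the anchors of loops, and lies on chromosome 8 of GRCm38 from 105636568 to 105682922. It had 217 and 238 CPM for Naive replicates 1 and 2, 204 and 219 CPM for Th17 and 222 and 175 CPM for Th1. The libraries of the 3 cell types overlapped in each comparison, and the highest library was 1.36 times the lowest. As mean ± SD, *Ctcf* had 227 ± 14.8 CPM for Naive, 211 ± 10.5 CPM for Th17 and 199 ± 33.2 CPM for Th1 (n = 2 each), and no neighbours in this order differed beyond their spread. The log2 fold change was -0.11 in Th17 (95% interval -0.69 to 0.48) and -0.19 in Th1 (-0.78 to 0.39) compared with Naive, and -0.09 (-0.67 to 0.50) between Th1 and Th17. The adjusted p-values by edgeR were 0.81, 0.68 and 0.84. A difference of 2-fold lies outside each of these intervals. The exons of *Ctcf* share 7.61% of their length with *Gm5914*, a lincRNA on the other strand, and 2.35% with *Agrp*, and reads there could not be told apart if strand was not used in counting.

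*Ctcfl* encodes a paralog of CTCF, also called BORIS, that is normally made in male germ cells. It lies on chromosome 2 from 173093609 to 173119525. Its counts were 5 and 2 for Naive, 1 and 0 for Th17 and 0 and 0 for Th1, which is at most 0.0990 CPM, and did not pass the filter on low counts. The 3 counts taken as the limit of detection correspond to 0.0440 CPM in the library where this limit is lowest and to 0.190 CPM where it is highest. Its level was thus at or near the limit in each library, and no fold change is given. A list of 5 germ cell genes summed to at most 1.56 CPM.

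*Smc1a* and *Smc3* encode the ATPase arms of the ring. *Smc1a*, on chromosome X from 152016428 to 152062694, had 162 and 172 CPM for Naive, 132 and 88.5 CPM for Th17 and 273 and 166 CPM for Th1. *Smc3*, on chromosome 19 from 53600398 to 53645833, had 118 and 109 CPM for Naive, 78.6 and 63.1 CPM for Th17 and 163 and 101 CPM for Th1. For both genes each Th17 library lay below each of the other 4 libraries, and Th1 replicate 1 lay above both Naive libraries. Th1 replicate 2 lay between the Naive libraries for *Smc1a* and below them for *Smc3*.

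Between Th1 and Th17, *Smc1a* had a mean of 219 ± 75.5 CPM for Th1 and 110 ± 30.8 CPM for Th17 (SD, n = 2 each). The difference was 1.99-fold (95% interval 1.21 to 3.27), or 0.99 on the log2 scale (standard error 0.32, adjusted p = 0.062 by edgeR). *Smc3* had 132 ± 43.5 CPM for Th1 and 70.8 ± 11 CPM for Th17, a difference of 1.86-fold (1.18 to 2.93), or 0.90 on the log2 scale (standard error 0.29, adjusted p = 0.063 by edgeR). Neither passed 0.05 in this fit, while DESeq2 gave adjusted p-values of 0.025 and 0.028 and edgeR without the filter on low counts 0.011 and 0.020. Over all alternatives the adjusted p-values ranged from 0.011 to 0.41 for *Smc1a* and from 0.020 to 0.38 for *Smc3*. Both values rested in part on Th1 replicate 1. Without it, and with the lone Th1 library assumed to vary like the other groups, the log2 fold changes were 0.59 for *Smc1a* (adjusted p = 0.32) and 0.51 for *Smc3* (adjusted p = 0.35). Without Th17 replicate 2 they were 0.74 and 0.76.

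Compared with Naive, the means in Th17 were lower for both genes. The log2 fold change in Th17 was -0.60 for *Smc1a* (95% interval -1.31 to 0.12, adjusted p = 0.22 by edgeR) and -0.68 for *Smc3* (-1.34 to -0.03, adjusted p = 0.13). Without Th17 replicate 2 the value for *Smc1a* was -0.34 and that for *Smc3* -0.54. In Th1 compared with Naive the values were 0.39 for *Smc1a* (-0.32 to 1.11, adjusted p = 0.46) and 0.21 for *Smc3* (-0.44 to 0.86, adjusted p = 0.68). Without Th1 replicate 1 the value was 0.03 for *Smc1a* (adjusted p = 0.97) and -0.13 for *Smc3* (adjusted p = 0.87). In bulk libraries, fewer cells that express a gene and less RNA per cell cannot be told apart. The neutrophil list was highest in Th17, where *Smc1a* and *Smc3* were lowest. Of its 7 genes, 5 were higher and 1 lower at an adjusted p-value under 0.05 in Th17 vs Naive, against 9.37% and 6.51% of all genes. In Th1 vs Naive 5 were also higher and 2 lower, against 9.1% and 7.33%, although the summed CPM of the list was lower in Th1. *S100a9*, *Ltf* and *Camp* had 0 counts in Naive replicate 2. The 5 macrophage and dendritic cell genes were all higher in Th17 and 2 passed 0.05. The part of these cells in the result was not tested.

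*Rad21* encodes the kleisin that closes the ring, and lies on chromosome 15 from 51962240 to 51991747. It had 233 and 213 CPM for Naive, 262 and 283 CPM for Th17 and 450.3 and 280.1 CPM for Th1. Each Naive library was below each library of Th17 and Th1, and Th1 replicate 1 stood far above the other 5 libraries. The log2 fold change compared with Naive was 0.71 in Th1 (95% interval 0.04 to 1.38, adjusted p = 0.14 by edgeR) and 0.29 in Th17 (-0.38 to 0.95, adjusted p = 0.53). Between Th1 and Th17 it was 0.42 (-0.24 to 1.09, adjusted p = 0.34). Without Th1 replicate 1, the value in Th1 was 0.37 compared with Naive and 0.04 compared with Th17.

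**Figure D2:**
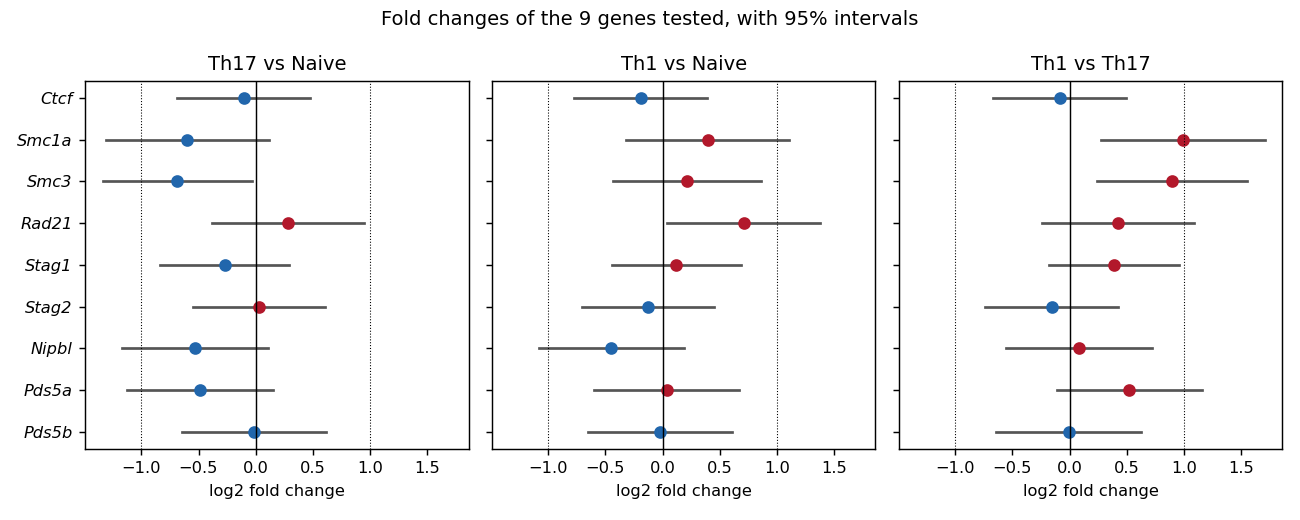
Log2 fold changes of the 9 genes tested in Th17 vs Naive, Th1 vs Naive and Th1 vs Th17, as points with 95% confidence intervals from edgeR. Red points are above 0, blue points below 0, and dotted lines mark a 2-fold difference. The intervals of *Smc1a* and *Smc3* in Th1 vs Th17, of *Rad21* in Th1 vs Naive and of *Smc3* in Th17 vs Naive do not reach 0, and none of these adjusted p-values is under 0.05.

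*Stag1* and *Stag2* encode the alternative subunits that bind RAD21. STAG2 cohesin is commonly the more abundant form, and STAG1 cohesin is known for long-lived loops at CTCF sites. *Stag1*, on chromosome 9 from 100597798 to 100959375, had 67.2 and 81.5 CPM for Naive, 62.5 and 60.7 CPM for Th17 and 88.5 and 72.8 CPM for Th1. *Stag2*, on chromosome X from 42149317 to 42277185, had 196 and 213 CPM for Naive, 185 and 233 CPM for Th17 and 193 and 182 CPM for Th1. *Stag1* was lower in both Th17 libraries than in the other 4, and *Stag2* was the most level of the 9 genes, with its highest library 1.28 times its lowest. The log2 fold changes of *Stag1* were -0.27, 0.12 and 0.39 in Th17 vs Naive, Th1 vs Naive and Th1 vs Th17, with adjusted p-values by edgeR of 0.48, 0.81 and 0.30. Those of *Stag2* were 0.03, -0.13 and -0.16, with adjusted p-values of 0.95, 0.80 and 0.70.

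*Nipbl* encodes the loader of the ring, and lies on chromosome 15 from 8290617 to 8444463. It had 161 and 246 CPM for Naive, 152 and 129 CPM for Th17 and 148 and 149.5 CPM for Th1. Both Naive libraries were above the other 4, but Naive replicate 1 only slightly so. The log2 fold change compared with Naive was -0.53 in Th17 (95% interval -1.17 to 0.11, adjusted p = 0.22 by edgeR) and -0.45 in Th1 (-1.09 to 0.19, adjusted p = 0.34). Without Naive replicate 2 these values were -0.20 and -0.11. Between Th1 and Th17 the value was 0.08 (adjusted p = 0.86). *Mau2*, which encodes the partner of NIPBL, had log2 fold changes of -0.69 in Th17 (adjusted p = 0.11) and -0.48 in Th1 (adjusted p = 0.29) compared with Naive.

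*Pds5a* and *Pds5b*, both on chromosome 5, lie from 65605721 to 65698273 and from 150673739 to 150810690. *Pds5a* had 138 and 186 CPM for Naive, 129 and 102 CPM for Th17 and 188 and 144 CPM for Th1. *Pds5b* had 66.6 and 71.8 CPM for Naive, 67.8 and 69.4 CPM for Th17 and 83.9 and 52.2 CPM for Th1. *Pds5a* was lowest in Th17, where both libraries lay below the other 4, while the libraries of *Pds5b* overlapped between all cell types and its Th1 replicates spread the most. The log2 fold changes of *Pds5a* were -0.49, 0.04 and 0.52 in Th17 vs Naive, Th1 vs Naive and Th1 vs Th17 (adjusted p = 0.26, 0.96 and 0.22 by edgeR). Those of *Pds5b* were all between -0.02 and -0.01.

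Levels of different genes were compared per kb of exon. Averaged over the 6 libraries, *Rad21* had the highest level with 67.8 CPM per kb, followed by *Ctcf* with 43.7, *Smc1a* with 28.7, *Stag2* with 24.2, *Smc3* with 19.1 and *Nipbl* with 17.4 CPM per kb. *Pds5a*, *Pds5b* and *Stag1* followed with 7.64, 6.97 and 6.13 CPM per kb, and *Ctcfl* was last with 0.0097. *Rad21* stood above *Ctcf* in each library of each cell type. The libraries of *Ctcf* and *Smc1a* overlapped within Th1, those of *Smc1a* and *Stag2* within Th17, those of *Stag2* and *Smc3* within Th1, and those of *Smc3* and *Nipbl* within Naive and Th17. Those of *Pds5a* and *Pds5b*, and of *Pds5b* and *Stag1*, overlapped within Naive and Th1. Within Th17 the order of *Pds5a* and *Pds5b* was turned, with 6.66 and 5.27 CPM per kb for *Pds5a* and 6.89 and 7.06 CPM per kb for *Pds5b*. By the means of single cell types, *Stag2* (25.3 CPM per kb) also stood above *Smc1a* (19.1) in Th17, *Nipbl* above *Smc3* in Naive and Th17 and *Smc3* above *Stag2* in Th1, with overlapping libraries in each case. With the length of the longest coding transcript in place of all exons, *Stag1* (11.7 CPM per kb) came before *Pds5b* (9.25 CPM per kb), and the order of the other genes was the same. Within Naive alone *Ctcf*, with 60.1 CPM per kb on this length, then stood above *Rad21* with 56.5.

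Ratios of 2 genes within a library do not depend on the scaling between libraries. The log2 ratio of *Ctcf* to *Rad21*, per kb of exon, was -0.31 and -0.04 for Naive, -0.56 and -0.57 for Th17 and -1.22 and -0.87 for Th1. The 3 cell types did not overlap, with Naive highest and Th1 lowest. For *Rad21* to *Smc3* the log2 ratio was 1.37 and 1.35 for Naive, 2.12 and 2.55 for Th17 and 1.86 and 1.86 for Th1, again without overlap, and with Th17 highest. The mean difference from Naive was 0.98 in Th17 and 0.50 in Th1. These ratios share *Rad21*, whose values in Th17 and Th1 lay above those in Naive. In Th17 vs Naive the log2 fold change was 0.29 for *Rad21* and -0.68 for *Smc3*. In Th1 vs Naive it was 0.71 and 0.21.

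The ratio of the ATPase arms was closer to level. *Smc1a* to *Smc3* had log2 ratios of 0.39 and 0.59 for Naive, 0.69 and 0.43 for Th17 and 0.69 and 0.66 for Th1. Over the 6 libraries the log2 CPM of these genes had a Pearson's r of 0.97, the highest of the pairs among the 9 genes, as a description of libraries that share cell types, depth and Th1 replicate 1. *Stag2* to *Stag1* had log2 ratios of 2.06 and 1.90 for Naive, 2.08 and 2.45 for Th17 and 1.64 and 1.83 for Th1. Both Th17 libraries lay above Naive, replicate 1 only slightly, and both Th1 libraries below. *Pds5a* to *Pds5b* had ratios of 0.07 and 0.40 for Naive, -0.05 and -0.42 for Th17 and 0.19 and 0.49 for Th1, so that Th17 alone lay apart. *Nipbl* to *Mau2* ranged from 0.51 to 0.90, and Th1 overlapped with both other cell types. The ratios were not tested, because the smallest two-sided p-value that exact permutation allows with 2 libraries per cell type is 0.333. Of all single genes tested, 65.5%, 56% and 66.6% did not overlap in Th17 vs Naive, Th1 vs Naive and Th1 vs Th17, each comparison taken alone. No such share was computed for ratios.

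**Figure D3:**
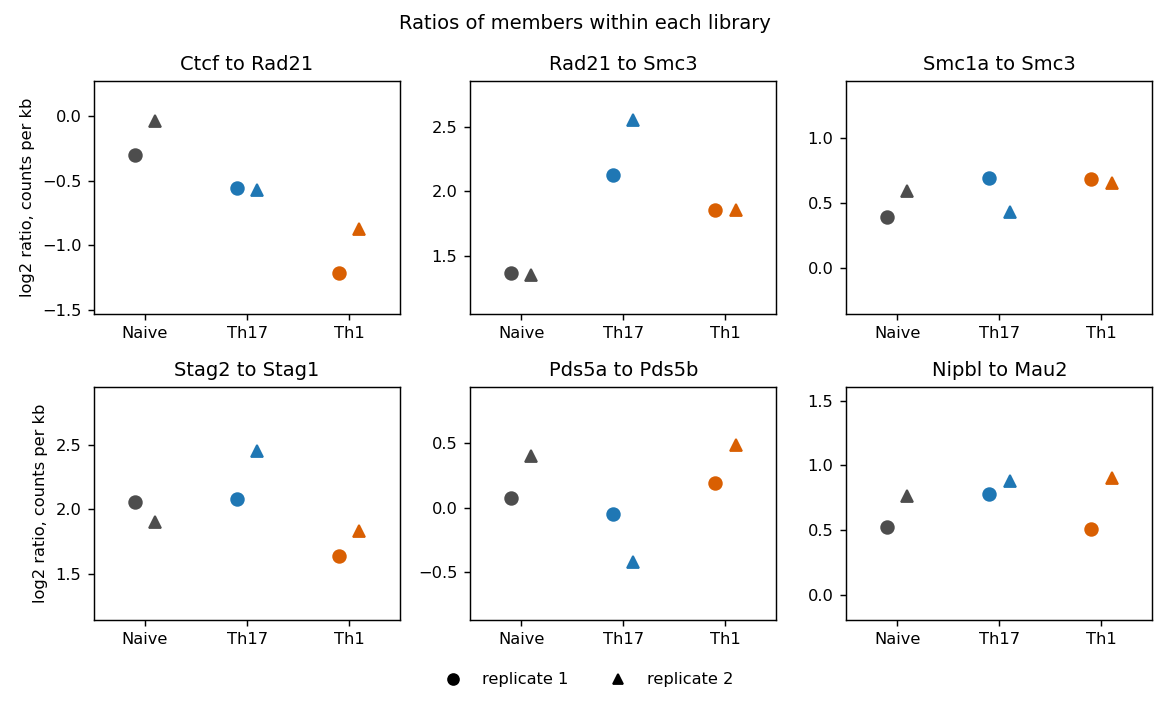
Log2 ratio of counts per kb of exon between the genes of 6 pairs, in each library of Naive, Th17 and Th1, with circles for replicate 1 and triangles for replicate 2. The y axes differ in position between pairs. *Ctcf* to *Rad21*, *Rad21* to *Smc3* and *Stag2* to *Stag1* do not overlap between any of the cell types.

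Among 13295 genes whose SD over the 6 libraries was at least that of *Ctcf*, the genes most like *Ctcf* in log2 CPM were *Mier3* (Pearson's r 0.985), *Setdb2* (0.977) and *Col15a1* (0.964), and 58 genes had an r above 0.9. *Ctcf* itself had an r of 0.83 with *Pds5b* and of -0.07 with *Rad21*. With 6 libraries of 3 cell types these values only describe the libraries.

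Other genes of the machinery were examined in a wider list of 50 genes, made of cohesin regulators, meiotic cohesin, condensin and SMC5/6, and other architectural factors. Of these, 47 were tested. In Th17 vs Naive, 0 were higher and 2 lower at an adjusted p-value under 0.05 by edgeR (4.26% of the list), against 9.37% of all genes higher and 6.51% lower. In Th1 vs Naive, 5 were higher and 2 lower (14.9%), against 9.1% and 7.33% of all genes. In Th1 vs Th17, 5 were higher and 1 lower (12.8%), against 8.25% and 8.14%. These shares lie below or near those of all genes. By group, those that passed in the 3 comparisons were 0, 2 and 2 of 15 cohesin regulators, 1, 1 and 0 of 2 meiotic genes tested, 0, 1 and 1 of 14 condensin and SMC5/6 genes and 1, 3 and 3 of 16 other architectural factors tested. The counts moved when single libraries were left out. Such fits leave 1 library in a cell type, and their counts are not given here. The log2 fold changes of the named genes in these fits are given below. The median log2 fold change of the list was -0.27, 0.22 and 0.62, against -0.02, -0.02 and -0.03 for all genes.

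*Rec8*, the meiotic kleisin that takes the place of RAD21 in germ cells, was higher in Naive. It had 13.0 and 5.0 CPM for Naive, 1.09 and 0.849 CPM for Th17 and 0.495 and 0.632 CPM for Th1. The log2 fold change compared with Naive was -3.20 in Th17 (standard error 0.58, adjusted p = 0.0060 by edgeR) and -4.03 in Th1 (standard error 0.61, adjusted p = 0.0021). Without Naive replicate 1 the values were -2.35 and -3.18, and both remained under 0.05. Without Th17 replicate 2 the value in Th17 was -3.06 (adjusted p = 0.051). Even in Naive the level of *Rec8* was far below that of *Rad21*. *Rad21l*, the other meiotic kleisin, had 0 counts in every library, which allows up to the limit of 3 counts.

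*Smchd1*, an SMC-like protein known for its role on the inactive X chromosome, was higher in Th1 than in Th17 in the test and in each of its 15 alternatives. It had 102 and 84.1 CPM for Th17, 480.2 and 322 CPM for Th1 and 167 and 196 CPM for Naive. Between Th1 and Th17 the log2 fold change was 2.11 (standard error 0.30, adjusted p = 0.0021 by edgeR), and between 1.79 and 2.38 with each library left out. Compared with Naive it was 1.15 in Th1 (adjusted p = 0.026), or 0.87 (adjusted p = 0.15) without Th1 replicate 1, and it also missed 0.05 without either Naive library.

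Of the genes of chromatin architecture, *Satb1*, an organizer of chromatin that is abundant in T cells, had 410 and 775 CPM for Naive and 1389 and 1845 CPM for Th1, a log2 fold change of 1.45 (adjusted p = 0.025 by edgeR). *Lmna*, which encodes A-type lamins, was lower in Th1 with 4.95 and 2.47 CPM, against 41.0 and 7.53 CPM for Naive and 20.6 and 17.3 CPM for Th17. Its log2 fold change was -2.68 compared with Naive (adjusted p = 0.024) and -2.32 compared with Th17 (adjusted p = 0.044). Naive replicate 1 carried much of the former, which was -0.99 without it (adjusted p = 0.22) and -2.30 without Th1 replicate 2 (adjusted p = 0.11). The latter missed 0.05 whenever a library of Th17 or Th1 was left out, with values between -2.94 and -1.92 and adjusted p-values between 0.059 and 0.17. The zinc finger factor *Vezf1* was higher in Th1 than in Th17 (log2 fold change 1.26, adjusted p = 0.019), and the zinc finger factor *Maz* lower in Th17 than in Naive (log2 fold change -1.15, adjusted p = 0.037). Leaving out single libraries moved *Satb1* between 1.06 and 1.98, *Vezf1* between 0.99 and 1.49 and *Maz* between -1.58 and -0.82, and each then missed 0.05 at least once. *Satb1* missed it without Naive replicate 1 or Th1 replicate 2, *Vezf1* without either Th17 library or Th1 replicate 2, and *Maz* without any library but Th17 replicate 1.

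Several genes that were higher in Th1 act on cohesin or condensin in mitosis. Compared with Naive these were *Sgol2* and *Sgol1*, the shugoshins that protect centromeric cohesin (log2 fold changes 2.34 and 2.08, adjusted p = 0.024 and 0.028 by edgeR), and *Ncaph*, the kleisin of condensin I (1.95, adjusted p = 0.026). Compared with Th17 they were *Espl1*, the separase that cuts RAD21 (2.14, adjusted p = 0.050, just under the threshold), and *Ncapd2*, another condensin I subunit (1.81, adjusted p = 0.047). Each differed strongly between the Th1 replicates. *Ncaph* had 161 and 51.3 CPM, and *Espl1* 207 and 44.1 CPM for Th1 replicates 1 and 2. When single libraries were left out, the lowest log2 fold changes were 0.89 for *Sgol2*, 1.21 for *Sgol1*, 0.94 for *Ncaph*, 0.63 for *Espl1* and 0.60 for *Ncapd2*. Each of these was the value without Th1 replicate 1, where the adjusted p-values were 0.22, 0.16, 0.18, 0.42 and 0.37, so that none of the 5 genes passed 0.05. *Sgol2*, *Sgol1* and *Ncaph* also missed it without Naive replicate 2 (adjusted p = 0.085, 0.099 and 0.11), *Sgol2* without Naive replicate 1 (adjusted p = 0.077), *Espl1* and *Ncapd2* without either Th17 library, and all 5 with library size alone.

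Because cohesin also acts in dividing cells, 24 genes of DNA replication and mitosis were examined beside the CTCF and cohesin genes. Their summed CPM was 8146 in Th1 replicate 1 and 2508 in Th1 replicate 2, against 3113 and 1457 in Naive and 2924 and 2624 in Th17. Th1 replicate 1 thus stood apart from the other 5 libraries. All 24 genes were higher in replicate 1 than in replicate 2 of Th1, with a median log2 difference of 1.72, and also in Naive, with a median of 1.27. In Th17 20 of 24 were higher, with a median of 0.21. Of all 13607 genes tested, 7016 were higher in replicate 1 of Th1, 7000 in that of Naive and 7259 in that of Th17.

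With cell type as the only term, 0 of the 24 genes passed an adjusted p-value of 0.05 in Th17 vs Naive by edgeR or DESeq2. Among all genes 15.9% passed by edgeR and 22% by DESeq2. At an unadjusted p-value under 0.05 there were 2 of 24 by edgeR, against 33.3% of all genes. The count at an adjusted p-value under 0.05 depended on the fit. It was between 0 and 7 over the alternatives, with 7 by edgeR without the filter on low counts. The share of all genes is not given for that fit. In Th1, 6 were higher and 0 lower compared with Naive by edgeR, against 9.1% of all genes higher and 7.33% lower. The 6 were led by *Top2a* (log2 fold change 2.49), *Birc5* (2.24), *Mki67* (2.18) and *Aurkb* (2.14). Compared with Th17, 3 were higher in Th1, *Mki67* (2.12), *Plk1* (1.99) and *Bub1b* (1.91), against 8.25% of all genes. These log2 fold changes moved when single libraries were left out. In Th1 vs Naive they lay between 1.22 and 3.17 for *Top2a*, 1.17 and 3.31 for *Birc5*, 0.71 and 2.90 for *Mki67* and 1.09 and 3.03 for *Aurkb*. In Th1 vs Th17 they lay between 0.61 and 2.85 for *Mki67*, 0.88 and 2.62 for *Plk1* and 0.81 and 2.53 for *Bub1b*. Each lowest value was the one without Th1 replicate 1. Counts of genes passing are not given for such fits, which leave 1 library in a cell type.

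The CTCF and cohesin genes shared part of this difference between the Th1 replicates. Of the 9 genes, 8 were higher in Th1 replicate 1 than in replicate 2, against 7016 of all 13607 genes tested. The median log2 difference was 0.39, against 0.02 for all genes tested. The largest were those of *Smc1a* (0.72), *Rad21* (0.69), *Pds5b* (0.68) and *Smc3* (0.68), and the exception was *Nipbl* (-0.01). In Naive only 2 of 9 were higher in replicate 1, against 7000 of all 13607 genes tested. The median in Naive was -0.12, although the cycling genes were higher in replicate 1 there too. The part of cycling cells in the values of *Smc1a*, *Smc3* and *Rad21* in Th1 was not tested. Th1 replicate 1 was the highest library for each of these genes, so leaving it out lowers their values in Th1 in any case.

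**Figure D4:**
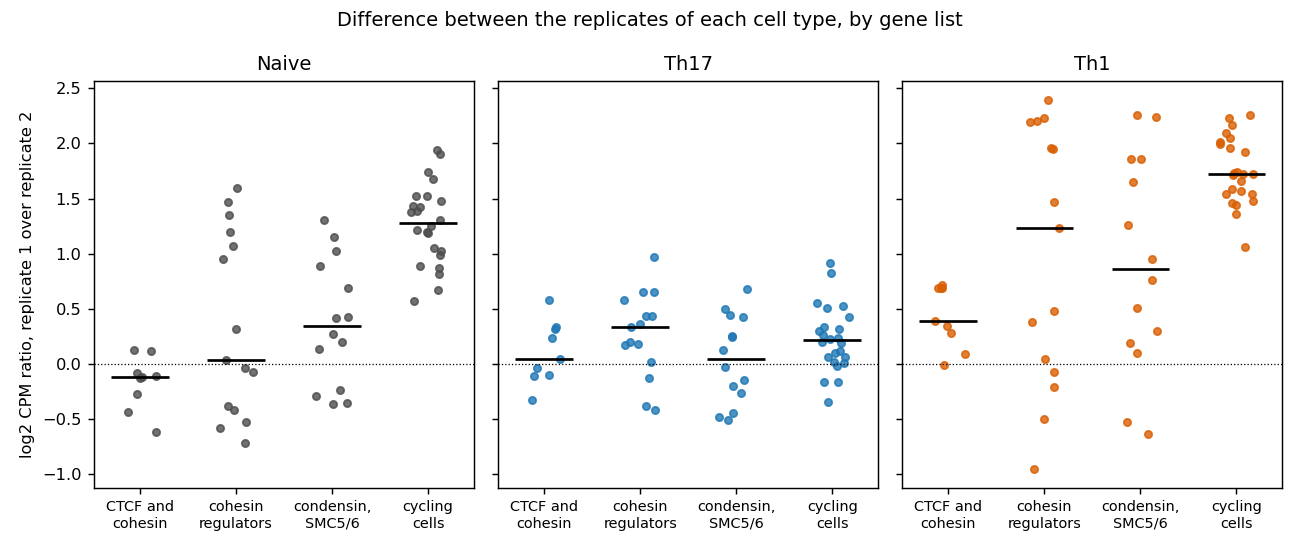
Log2 ratio of CPM in replicate 1 to replicate 2 of Naive, Th17 and Th1 for the 9 CTCF and cohesin genes tested, cohesin regulators, condensin and SMC5/6 genes and cycling cell genes. Each point is a gene and each line a median. In Th1 the medians are 0.39, 1.23, 0.86 and 1.72, and in Naive -0.12, 0.04, 0.34 and 1.27.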

How the data were processed

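The deposited values are raw counts for each gene of 6 RNA-Seq libraries. According to the methods, the authors aligned reads to mm10 with Hisat2 (v2.2.1), removed duplicates and counted with HTSeq (v0.13.5). The methods give default parameters, while the supplementary code counts reverse-stranded reads and holds no step for duplicates, so the use of strand is uncertain. Libraries were polyA-selected and made by Smart-seq2, neither of which the methods of the paper name.

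Tests used edgeR 4.0.16 (with limma 3.58.1) and, as an alternative, DESeq2 1.42.0 under R 4.3.3. Of 24223 genes, 13607 passed filterByExpr. TMM factors ranged from 0.862 to 1.09. A single quasi-likelihood model of the 6 libraries had cell type as its only term, with Benjamini-Hochberg adjustment over all genes tested. The code was tested on simulated data. Log2 CPM used a prior count of 2. The 3-count limit covers counting error only. The 95% intervals of the log2 fold changes come from the quasi-likelihood fit and include the spread between replicates.

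The members and gene lists were chosen with earlier results of these data known. Named genes are all members and, from the wider and cycling lists, the 4 with the largest log2 fold change per comparison and direction among those with an adjusted p-value under 0.05 and over 3 counts in every library. *Smchd1* in Th1 compared with Naive and *Mau2* were named outside this rule, as were *Mpo*, *Car1*, *S100a9*, *Ltf* and *Camp* of the marker lists. Positions are from GENCODE vM21 (GRCm38). The alternatives tried were DESeq2, other size factors, other filters on low counts, the replicate number as a block, thinning of all libraries to the smallest, a fit of only the 4 libraries compared, leaving out each library, and, chosen after seeing the data, another transcript length.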

Additional observations from a re-analysis of the deposited data

Results flagged for a closer look

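The log2 ratio of *Stag2* to *Stag1* lay on opposite sides of Naive in the Th17 and Th1 libraries. Of single genes, 65.5%, 56% and 66.6% did not overlap in Th17 vs Naive, Th1 vs Naive and Th1 vs Th17, each comparison taken alone. How often ratios of genes lie apart, or single genes in every comparison at once, was not computed. Both Th17 libraries (2.08 and 2.45) lay above and both Th1 libraries (1.64 and 1.83) below the Naive libraries (2.06 and 1.90), and the mean difference, Th1 minus Th17, was -0.53. This difference was not tested, since 2 libraries against 2 allow no exact p-value under 0.333. Th17 replicate 1 exceeded Naive replicate 1 by little.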

How the results depend on the processing

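Of 405 alternative values of the 27 log2 fold changes of the CTCF and cohesin genes, 371 kept their direction and their side of an adjusted p-value of 0.05, 7 passed it and 27 changed sign. DESeq2 called 2 of 9 genes in Th1 compared with Th17, as did the test without a filter on low counts, *Smc1a* and *Smc3* in each case, against 23% and 19.2% of all genes. No gene was called a DEG under any alternative. The changes of sign were of values near 0. With library size alone, which moved the median of all genes to -0.26 in Th1 compared with Naive and to -0.24 in Th1 compared with Th17, *Stag2* in Th17 compared with Naive was -0.012, *Smc3*, *Stag1* and *Pds5a* in Th1 vs Naive were -0.020, -0.13 and -0.21, and *Nipbl* in Th1 compared with Th17 was -0.14. Requiring 10 counts in every library gave -0.0033 for *Nipbl* in Th1 compared with Th17 and 0.039 for *Pds5b* in Th17 compared with Naive. The latter was 0.031 with only the 4 libraries compared and 0.015 with thinned libraries, and *Pds5b* in Th1 compared with Th17 was 0.014 without the filter. Leaving out each library moved *Stag2* from -0.15 to 0.19 and *Pds5b* from -0.065 to 0.033 in Th17 vs Naive. In Th1 vs Naive it moved *Smc3* from -0.13 to 0.52, *Stag1* from -0.020 to 0.26, *Pds5a* from -0.17 to 0.27 and *Pds5b* from -0.36 to 0.29. In Th1 compared with Th17 it moved *Ctcf* from -0.27 to 0.085, *Stag2* from -0.32 to 0.025, *Nipbl* from -0.021 to 0.20 and *Pds5b* from -0.40 to 0.30.

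The counts of the wider list at an adjusted p-value under 0.05, in Th17 vs Naive, Th1 vs Naive and Th1 vs Th17, were 2, 7 and 6. They were 4, 15 and 12 with DESeq2, against 22%, 20.7% and 23% of all genes. With library size alone they were 1, 2 and 3. Without the filter they were 6, 17 and 16, where 19.2% of all genes passed in Th1 vs Th17. In Th1 vs Th17 the count was 3 with 10 counts required in every library and also 3 with thinned libraries. The counts also moved when single libraries were left out. The counts of the cycling list were 0, 6 and 3. They were 13 and 6 in Th1 vs Naive and Th1 vs Th17 with DESeq2, against 20.7% and 23% of all genes. With library size alone they were 1 and 0 in those comparisons. Without the filter they were 7, 15 and 11 in the 3 comparisons. With 10 counts required, the count was 1 in Th1 vs Th17. With only the 4 libraries compared, it was 3 in Th17 vs Naive and 5 in Th1 vs Th17. These counts moved with single libraries too. Where no share of all genes stands beside a count, it is not read as particular to its list. In each case the cause was not tested.

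The deviations of the replicates had correlations of -0.23 for Naive and Th17, 0.17 for Naive and Th1 and 0.08 for Th17 and Th1. These correlations over all genes do not decide whether the replicate numbers pair the libraries. Replicate 1 was the deeper in each cell type. With the replicate number as a block, edgeR called 1 of the 9 genes in Th1 vs Th17 (*Smc1a*, adjusted p = 0.049) and DESeq2 called 2, against 17.5% and 20% of all genes. For the wider list the block gave 13 in Th1 vs Naive with edgeR, and 4, 17 and 12 in the 3 comparisons with DESeq2. For the cycling list it gave 4, 13 and 5 with edgeR and 6, 14 and 6 with DESeq2. The shares of all genes above apply to Th1 vs Th17 alone, and none is given for the other comparisons with the block.

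Dividing by another length, or by none, moved each ratio by the same amount in every library, so that differences between cell types were not affected. With 3 counts as the limit, depth limits *Ctcfl* and the meiotic genes.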
